A study of Mus musculus with 33 samples.

Results

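The sialic acid-binding immunoglobulin-like lectins (Siglecs) were examined in bulk RNA-seq of sorted Kupffer cells (KCs), the resident macs of the liver, and alveolar macs (AMs), the resident macs of the lung airspaces. The 7 genes followed were Siglecf, Siglec1, Siglece, Siglecg, Siglech, Cd33 and Cd22, selected by family symbol from the 24421 gene rows that each of the 33 count files shares. The selection was made with earlier results of these samples known: Siglecf was listed as the marker of AMs, and its rise in KCs after Zeb2 deletion had already been seen, so its values are given as a description without a test. Mag and Siglec15, the other family symbols in the files, were not among the selected genes. They were listed with the same earlier results known, so Mag is not an independent check of the selected genes.

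Mice were on the C57Bl/6 background, 6 to 8 weeks of age and of both sexes. CRE- KCs (n = 6) and CRE- AMs (n = 5) came from Zeb2 fl/fl mice, so every group carried the floxed Zeb2 alleles. Tim4+ KCs and Tim4- KCs (n = 6 each) carried Clec4f-cre on these alleles, and CD11b- AMs and CD11b+ AMs (n = 5 each) carried Itgax-cre on them (Clec4f-cre x Zeb2 fl/fl for the liver, Itgax-cre x Zeb2 fl/fl for the lung). Clec4f-cre acts in KCs and, per the study, in a few B cells, whereas Itgax-cre acts in AMs and in other CD11c+ cells. The study also describes Zeb2+/- macs in the CRE+ mice, so a CRE+ library need not be free of cells with an intact copy of Zeb2. The labels of the CRE- groups name no Tim4 or CD11b sort, so deletion and sort cannot be told apart. The labels do not say whether replicates, or groups with the same replicate number, came from separate mice, and p-values measure only the spread between these libraries.

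Siglecs are transmembrane receptors that bind sialic acids, the sugars that cap many glycans of vertebrate cell surfaces. Many of them, among them CD22, Siglec-E, Siglec-F and Siglec-G, carry cytoplasmic ITIM motifs, recruit the phosphatases SHP-1 and SHP-2 and dampen activation. Siglec-1 (CD169, sialoadhesin) lacks such motifs and acts in adhesion and capture, and Siglec-H and mouse CD33 can pair with the adaptor DAP12. Siglecf, Siglecg, Cd33 and Siglece lie within 1 stretch of mouse chromosome 7, in this order.

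Libraries held between 9837240 and 24332306 reads counted on genes, and all but 1 Tim4- KC library held at least 17454078. Zeb2 ranged from 229 to 339 CPM (counts scaled to library size, as in all levels here) in CRE- KCs, from 146 to 211 in Tim4+ KCs and from 149 to 196 in Tim4- KCs. In AMs it ranged from 169 to 205 CPM in CRE- AMs, from 84.7 to 114 in CD11b- AMs and from 50.3 to 70.2 in CD11b+ AMs. The CRE+ ranges did not overlap those of the controls in either tissue, and whether reads came from a deleted or an intact allele was not separated. Markers matched the labels: the summed level of 8 KC markers was 24253 to 26358 CPM in CRE- KCs and 307 to 514 CPM in CRE- AMs, and that of 10 AM markers was 57.9 to 81.0 CPM and 20871 to 31340 CPM. KC replicates 5 and 6 had 2706 to 3663 counts on 4 Y-linked genes and no Xist count, and KC replicates 1 to 4 had at most 4 Y-linked counts, so these numbers also separate the sexes in the KC groups. All 15 AM libraries had at most 1 Y-linked count and 228 to 643 Xist counts, so comparisons between the tissues set KC libraries of both sexes against AM libraries of one, and the part of sex in them was not tested.

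The family had a different leading member in the control macs of each tissue, and the members moved in different directions between CRE- and CRE+ groups. Per length of the gene, Siglece and Siglec1 led in CRE- KCs and Siglecf in CRE- AMs. Siglecf was higher in every CRE+ KC library than in any CRE- KC library and lower in every CRE+ AM library than in any CRE- AM library. In Tim4- KCs and CD11b+ AMs, Cd33 rose and Cd22 fell.

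**Figure D1:**
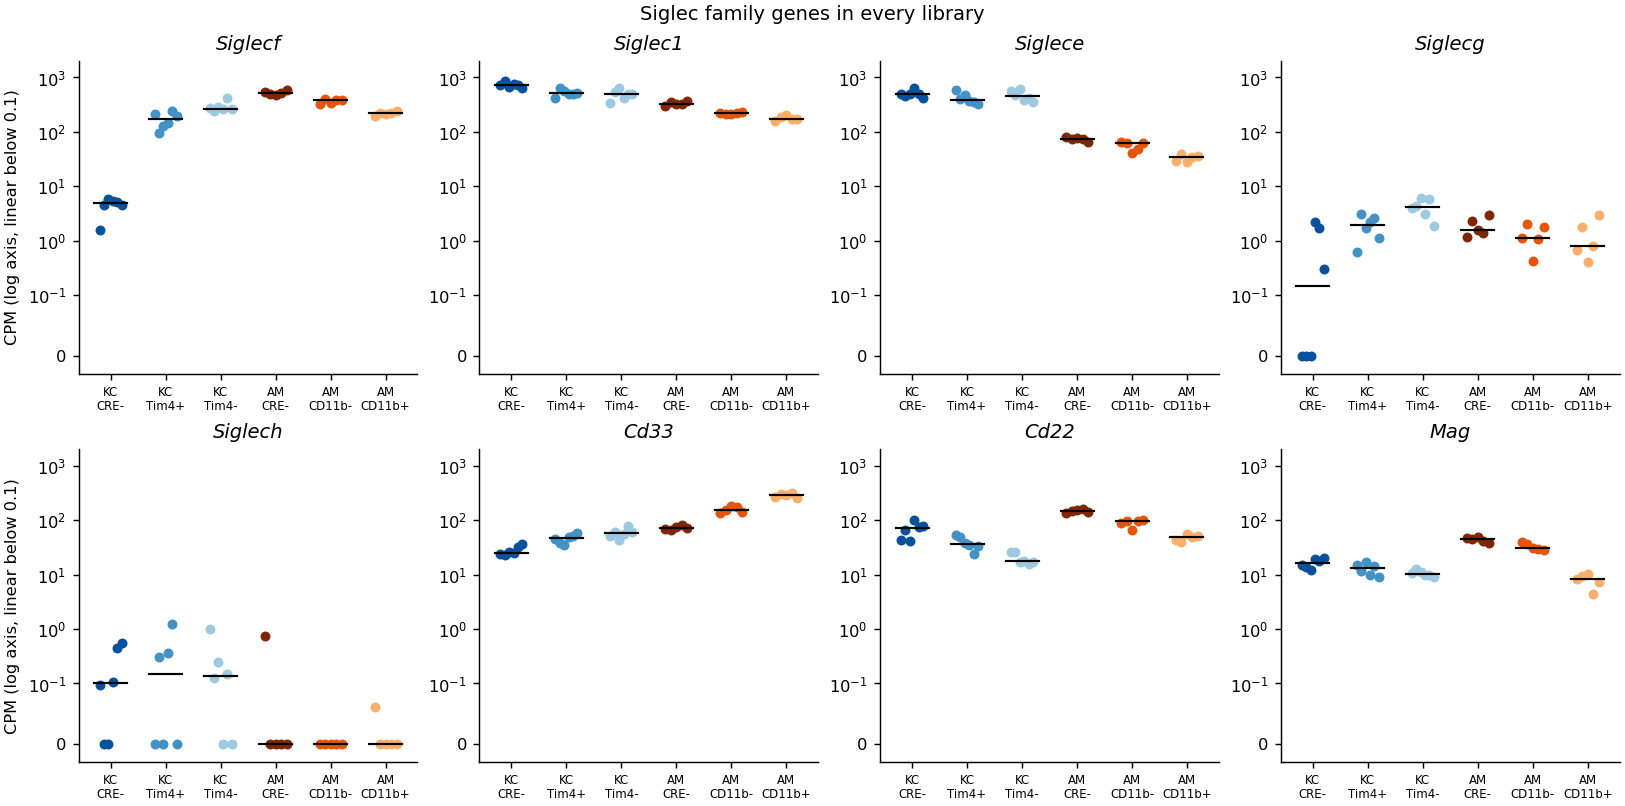
CPM of the 7 selected genes and Mag in each of the 33 libraries (points) by group, with group medians (lines), on a log axis that is linear below 0.1. Siglecf in KCs climbs from a median of 4.92 to 170.1 and 268 CPM, whereas in AMs it steps down from 529 to 389 and 221 CPM; Cd33 climbs and Cd22 steps down in both tissues.

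A gene was called when edgeR's quasi-likelihood test gave a Benjamini-Hochberg adjusted p under 0.05 and the absolute log2 fold change was above 1. Of the 7 genes, 6 passed the filter on low counts in each fit, and Siglech did not. Between CRE- KCs and CRE- AMs, 2 of 6 were higher in KCs (Siglec1 and Siglece) against 20.9% of all 12145 genes tested, and 3 of 6 were lower (Siglecf, Cd33 and Cd22) against 12.4%. In Tim4+ KCs over CRE- KCs, only Siglecf among the 6 was called, upwards, where 1.94% of all 12500 genes were called higher and 0.376% lower. In Tim4- KCs over CRE- KCs, Siglecf, Siglecg and Cd33 were called higher against 3.43% of all genes, and Cd22 was called lower against 5.39%.

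Between the KC subsets no member was called, where 0.44% of all genes were higher and 5.01% lower in Tim4- KCs. In CD11b- AMs over CRE- AMs, Cd33 was called higher against 3.98% of all 11573 genes tested, and no member was called lower against 2.51%. In CD11b+ AMs over CRE- AMs, Cd33 was called higher against 9.57%, and 3 of 6 (Siglecf, Siglece and Cd22) were called lower against 5.68%. Between the AM subsets no member was called, where 6.85% of all genes were higher and 3.3% lower in CD11b+ AMs. Nothing is read from the Siglecf calls in these counts, and the CRE- libraries are shared by the 2 comparisons of each tissue that use them.

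Siglec-F is an ITIM-bearing receptor of AMs and eosinophils whose surface protein the study uses to gate AMs in its single-cell experiment, and the gate of the bulk libraries is not given in the sources used here. Siglecf (ENSMUSG00000039013, chr7:43351341-43359531, plus strand, GRCm38) was at 1.62, 4.92 and 5.76 CPM in CRE- KCs, as lowest, median and highest of 6. Tim4+ KCs had 95.6, 170.1 and 238 CPM, and Tim4- KCs had 248, 268 and 421 CPM. All 3 KC groups were thus apart from each other, with Tim4- KCs highest. AMs had 537, 500.0, 476, 529 and 597 CPM in the 5 CRE- libraries, 323, 398, 337, 393 and 389 CPM in the CD11b- libraries, and 195, 221, 214, 226 and 240.3 CPM in the CD11b+ libraries. No 2 AM groups overlapped, and the order was the reverse of that in the liver, with CRE- AMs highest. By fold, Siglecf was 36.8 times its control level in Tim4+ KCs and 63.4 times in Tim4- KCs, and 0.411 times its control level in CD11b+ AMs. Tim4- KCs, at 248 to 421 CPM, overlapped CD11b- AMs and lay above CD11b+ AMs.

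Markers of eosinophils, the other main cells known to carry Siglec-F, were looked at beside these values. Their summed level over 7 genes was 47.9 to 105 CPM in CRE- KCs, 144 to 640 CPM in Tim4+ KCs and 149 to 682 CPM in Tim4- KCs. Most of it was Ccr3, the eotaxin receptor, at 43.1 to 61.2 CPM in CRE- KCs and 144 to 680 CPM in Tim4- KCs. Of 3 tested, only Ccr3 was called higher, in both CRE+ KC groups, against 1.94% of all genes in Tim4+ KCs and 3.43% in Tim4- KCs. The study lists Ccr3 among genes that differ between embryonic and monocyte-derived KCs. Of the granule genes, Epx had no count in any of the 18 KC libraries. Prg2 had none in CRE- KCs and at most 5 counts in any CRE+ KC library. The part of other cells in the Siglecf level was not tested. Siglecf itself had 21473 counts over the 6 Tim4+ libraries and 34484 over the 6 Tim4- libraries.

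The promoters of Siglecf and Cd33 are shown because both were called higher in Tim4- KCs and they parted in AMs. Siglecg was also called higher in Tim4- KCs, at low counts, and its promoters are not shown. Promoters here are the 300 bases from 250 before to 50 after the RefSeq start in GRCm38.p6, and 7 of 8 family genes looked up had one, Siglec1 being the exception. Among the family, the 16-base run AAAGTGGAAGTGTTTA was the longest that 2 members shared on either strand, and Siglecf and Cd33 were the only 2 of 27025 symbols with it in such a window. With 2 further runs of 12 bases, all in capitals in the lines that follow, it marks a stretch from -27 to +49 of Siglecf that matches -157 to -81 of Cd33 with 17 single-base edits, over 76 and 77 bases.
Siglecf, chr7:43351091-43351390, plus strand: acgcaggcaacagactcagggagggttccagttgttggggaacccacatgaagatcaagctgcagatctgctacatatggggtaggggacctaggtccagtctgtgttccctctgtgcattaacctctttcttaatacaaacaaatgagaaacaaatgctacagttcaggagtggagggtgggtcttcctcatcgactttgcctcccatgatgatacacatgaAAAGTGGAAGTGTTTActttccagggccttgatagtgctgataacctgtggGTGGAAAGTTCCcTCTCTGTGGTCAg
Cd33, chr7:43533122-43533421, minus strand: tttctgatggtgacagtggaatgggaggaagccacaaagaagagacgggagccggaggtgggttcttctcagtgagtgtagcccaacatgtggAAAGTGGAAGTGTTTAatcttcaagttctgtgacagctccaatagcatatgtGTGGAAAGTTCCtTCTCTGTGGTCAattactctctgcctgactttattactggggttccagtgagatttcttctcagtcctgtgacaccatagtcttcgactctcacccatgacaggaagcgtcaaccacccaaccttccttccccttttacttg
The shared stretch overlaps the start in Siglecf and lies before it in Cd33. The ZEB-type E-box CAGGTG, searched on both strands (CACCTG), occurs in neither, and 20.2% of all 32851 promoters of this length hold it. A match of letters is a description of the sequence and does not show that a factor binds there.

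Cd33 rose in both tissues, and it reached its highest level in CD11b+ AMs. CD33 (Siglec-3) is a myeloid receptor. Cd33 (ENSMUSG00000004609, chr7:43524216-43544428, minus strand) was at 23.0, 25.2 and 36.0 CPM in CRE- KCs as lowest, median and highest, at 34.96, 46.3 and 56.8 CPM in Tim4+ KCs and at 43.7, 57.1 and 77.0 CPM in Tim4- KCs. Tim4- KCs lay above all CRE- KCs, whereas the Tim4+ libraries overlapped with both. The log2 fold change was 1.05 ± 0.15 (SE) in Tim4- KCs (edgeR adjusted p = 3.1e-05) and 0.71 ± 0.15 in Tim4+ KCs (edgeR adjusted p = 0.00467), and the second was under the fold-change threshold. In AMs the 5 CRE- libraries had 69.1, 66.0, 74.4, 81.3 and 71.5 CPM, the CD11b- libraries 137, 152, 178.5, 172 and 139 CPM, and the CD11b+ libraries 263, 295, 282, 311 and 258 CPM. These 3 groups did not overlap, and each step was upwards. The log2 fold change over CRE- AMs was 1.10 ± 0.08 in CD11b- AMs (edgeR adjusted p = 9.42e-09) and 1.94 ± 0.09 in CD11b+ AMs (edgeR adjusted p = 4.53e-13), or 2.14 and 3.85 times the control level. Between the AM subsets it was 0.85 ± 0.08 (edgeR adjusted p = 1.46e-07).

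The call of Cd33 in Tim4- KCs was close to its threshold. Without replicate 2 the log2 fold change was 0.9998 (edgeR adjusted p = 0.00035) and it was no longer called, and with only replicates 5 and 6 it was 0.98 (edgeR adjusted p = 0.00599). In KCs, some monocyte markers moved with it. Of 8 tested, Ccr2 and Cx3cr1 were called higher in both CRE+ groups, against 1.94% of all genes in Tim4+ KCs and 3.43% in Tim4- KCs. Fn1 was called lower in Tim4- KCs, against 5.39%. In Tim4+ KCs 6 of the 8 were not called, and in Tim4- KCs 5. The summed level of 10 monocyte markers was 196 to 330.1 CPM in CRE- KCs, 188 to 524 CPM in Tim4+ KCs and 383 to 889 CPM in Tim4- KCs. Of 3 neutrophil markers tested in KCs, Cxcr2 was called higher in Tim4- KCs, and the sum over 9 was 86.5 to 132 CPM in CRE- KCs, 89.4 to 124 CPM in Tim4+ KCs and 115 to 190.1 CPM in Tim4- KCs. In AMs, myeloid markers of other cells also moved with it. The summed level of 9 neutrophil markers was 36.1 to 59.6 CPM in CRE- AMs, 807 to 2424 CPM in CD11b- AMs and 8182 to 10481 CPM in CD11b+ AMs. Of 7 tested, 5 were called higher in CD11b- AMs and 7 in CD11b+ AMs, against 3.98% and 9.57% of all genes. The others, Ngp and Camp, did not pass the filter on low counts and had no count in CD11b- AMs. Of 9 monocyte markers tested in AMs, 7 were called higher and 1 lower in CD11b+ AMs, against 9.57% and 5.68% of all genes. The sum of the monocyte markers there, 388 to 723 CPM, was nevertheless not above the 602 to 1051 CPM of CRE- AMs. The part of these cells' RNA in the Cd33 level was not tested, and in bulk samples more cells of a type and more RNA per cell cannot be told apart.

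Cd22 fell in both tissues. CD22 (Siglec-2) is best known as an inhibitory co-receptor of B cells that binds sialic acids in the alpha2,6 linkage. Cd22 (ENSMUSG00000030577, chr7:30865402-30880342, minus strand) was at 40.4, 70.2 and 102 CPM in CRE- KCs as lowest, median and highest, at 23.5, 36.4 and 54.0 CPM in Tim4+ KCs and at 15.5, 17.7 and 26.0 CPM in Tim4- KCs. Every Tim4- library was below every CRE- library, and Tim4+ KCs lay between and overlapped both. The log2 fold change was -1.78 ± 0.23 in Tim4- KCs (edgeR adjusted p = 6.93e-06) and -0.82 ± 0.22 in Tim4+ KCs (edgeR adjusted p = 0.0272). The latter was within the fold-change threshold with all libraries, and it was called at -1.04 without replicate 1 and at -1.45 with only replicates 5 and 6. CRE- AMs had 134, 148, 155, 159 and 140.4 CPM, CD11b- AMs 89.1, 96.8, 66.0, 95.6 and 99.8 CPM, and CD11b+ AMs 42.6, 39.8, 54.5, 48.2 and 50.7 CPM. No 2 AM groups overlapped. The log2 fold change over CRE- AMs was -0.73 ± 0.10 in CD11b- AMs (edgeR adjusted p = 3.29e-05) and -1.66 ± 0.11 in CD11b+ AMs (edgeR adjusted p = 1.46e-10), so that CD11b+ AMs kept 0.317 of the control level and Tim4- KCs 0.290.

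Markers of B cells, in which Cd22 is mostly studied, were read beside it. Over 9 genes their summed level was 124 to 176 CPM in CRE- KCs, 95.8 to 130.4 CPM in Tim4+ KCs and 132 to 223 CPM in Tim4- KCs. Of 8 tested in KCs, Cd79b was called lower in Tim4+ KCs, against 0.376% of all genes, and none was called in Tim4- KCs. In AMs the sum was 35.1 to 40.5 CPM in CRE- AMs, 38.7 to 57.7 CPM in CD11b- AMs and 132 to 164 CPM in CD11b+ AMs. In CD11b+ AMs 1 of 5 tested, Cd37, was called higher over CRE- AMs, against 9.57% of all genes. Cd79a was called lower in CD11b- AMs over CRE- AMs, at a log2 fold change of -1.03 ± 0.36 (edgeR adjusted p = 0.044), against 2.51% of all genes. In CD11b+ over CD11b- AMs 5 of 5 were called higher, against 6.85%, with a median log2 fold change of 1.62. The part of B cell RNA in the Cd22 level was not tested. Pax5 had no count in any AM library. Of the 35-base windows of Cd22 transcripts, 9.36% also occur on the opposite strand of other annotated transcripts, and whether counting used the strand is not given in the sources used here.

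Mag, the neighbour of Cd22 and a Siglec of myelinating cells that binds neuronal gangliosides, was not among the selected genes. Mag (ENSMUSG00000036634, chr7:30899176-30914873, minus strand) had 47.5, 45.5, 48.7, 40.4 and 37.5 CPM in CRE- AMs, 38.9, 36.4, 31.2, 30.0 and 27.9 CPM in CD11b- AMs, and 8.11, 9.29, 10.3, 4.42 and 7.30 CPM in CD11b+ AMs. Its log2 fold change in CD11b+ AMs was -2.49 ± 0.17 over CRE- AMs (edgeR adjusted p = 3.5e-10) and -2.07 ± 0.17 over CD11b- AMs (edgeR adjusted p = 1.63e-08). CD11b+ AMs were thus apart from both other groups, while CD11b- AMs differed from CRE- AMs by -0.43 ± 0.16 (edgeR adjusted p = 0.0527). In KCs the range was 12.3 to 20.3 CPM in CRE- KCs, 8.96 to 17.1 in Tim4+ KCs and 9.11 to 12.6 in Tim4- KCs, with a log2 fold change of -0.67 ± 0.17 in Tim4- KCs (edgeR adjusted p = 0.00624). The change of Mag in KCs less that in AMs was 0.95 ± 0.21 on the log2 scale (edgeR adjusted p = 0.000949), within the fold-change threshold.

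The promoters of these 2 neighbours are shown because both genes fell in CD11b+ AMs and both windows hold the ZEB-type E-box, in capitals, written CACCTG on the gene's strand. It begins at -245 in Cd22 and at -53 in the third of 3 Mag starts.
Cd22, chr7:30878979-30879278, minus strand: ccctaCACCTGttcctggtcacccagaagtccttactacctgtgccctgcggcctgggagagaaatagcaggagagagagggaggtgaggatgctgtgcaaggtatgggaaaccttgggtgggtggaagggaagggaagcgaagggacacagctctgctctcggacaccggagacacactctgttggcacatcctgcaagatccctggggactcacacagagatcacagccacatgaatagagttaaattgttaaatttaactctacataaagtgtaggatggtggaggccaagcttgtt
Mag, chr7:30914272-30914571, minus strand: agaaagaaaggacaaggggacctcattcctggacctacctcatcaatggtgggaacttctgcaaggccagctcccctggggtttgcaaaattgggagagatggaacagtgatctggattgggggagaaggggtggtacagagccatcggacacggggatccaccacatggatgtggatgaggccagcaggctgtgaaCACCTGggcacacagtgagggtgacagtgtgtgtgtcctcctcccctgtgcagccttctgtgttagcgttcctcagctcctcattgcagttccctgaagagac
Siglech was the other family member with the E-box in its window, and 22.6% of all 27025 symbols had it in at least 1 promoter. The windows of Siglecf and Siglece, also called lower in CD11b+ AMs, lack it, as do the other Mag starts. Whether a factor binds in these windows was not tested.

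Siglec1 and Siglece were the leading KC members, and both were lower in CRE- AMs. Siglec-1 (CD169) is the adhesion receptor by which macs of lymph node, spleen and liver capture sialylated particles. Siglec1 (ENSMUSG00000027322, chr2:131069220-131086765, minus strand) was at 632, 724 and 851 CPM in CRE- KCs as lowest, median and highest, at 427, 514 and 646 CPM in Tim4+ KCs and at 341, 498 and 629 CPM in Tim4- KCs. It had 303, 348, 323, 323 and 376 CPM in CRE- AMs, 224, 209.8, 212, 226 and 237 CPM in CD11b- AMs, and 159.9, 186, 204, 171 and 175 CPM in CD11b+ AMs. The control tissues differed by a log2 fold change of 1.12 ± 0.09 (edgeR adjusted p = 3.29e-08).

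Siglec1 was lower in each CRE+ group than in the CRE- group of its tissue, by less than the fold-change threshold. The log2 fold change was -0.47 ± 0.12 in Tim4+ KCs (edgeR adjusted p = 0.0197), -0.58 ± 0.12 in Tim4- KCs (edgeR adjusted p = 0.00112), -0.60 ± 0.07 in CD11b- AMs (edgeR adjusted p = 4.03e-06) and -0.92 ± 0.07 in CD11b+ AMs (edgeR adjusted p = 2.66e-09). The 3 AM groups did not overlap, and Tim4- KCs lay below all CRE- KCs. Of 8 KC markers tested, 6 were called lower in Tim4- KCs, against 5.39% of all genes, with a median log2 fold change of -1.43.

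Siglec-E is the main inhibitory Siglec of mouse neutrophils and macs. Siglece (ENSMUSG00000030474, chr7:43651070-43660161, minus strand) was at 418, 497 and 651 CPM in CRE- KCs as lowest, median and highest, at 328, 385 and 583 CPM in Tim4+ KCs and at 362, 452 and 626 CPM in Tim4- KCs. The 3 KC groups overlapped, and the log2 fold change in Tim4- KCs was -0.11 ± 0.15, with a 95% interval from -0.40 to 0.18 (edgeR adjusted p = 0.632). CRE- AMs had 80.6, 74.5, 76.0, 73.7 and 64.2 CPM, CD11b- AMs 64.8, 62.7, 40.5, 49.1 and 62.0 CPM, and CD11b+ AMs 29.8, 39.3, 28.1, 34.8 and 35.8 CPM. CD11b- AMs overlapped CRE- AMs, at a log2 fold change of -0.41 ± 0.12 (edgeR adjusted p = 0.0165). CD11b+ AMs were below all other AMs, at a log2 fold change of -1.15 ± 0.12 over CRE- AMs (edgeR adjusted p = 2.17e-07). CRE- KCs had 6.88 times the level of CRE- AMs, a log2 fold change of 2.78 ± 0.11 (edgeR adjusted p = 1.7e-11). The neutrophil markers given beside Cd33 rose in CD11b+ AMs, where Siglece fell.

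Siglecg, Siglech and Siglec15 were at or near the limit of these libraries. Siglec-G is an inhibitory receptor of B1 cells and of some myeloid cells. Siglecg (ENSMUSG00000030468, chr7:43408204-43418358, plus strand) had no count in 3 of 6 CRE- KC libraries and 7 to 43 counts in the other three, 12 to 61 counts in Tim4+ KCs and 40 to 149 counts in Tim4- KCs. In CPM the highest CRE- KC library, at 2.27, lay above 1 of 6 Tim4- libraries, which ranged from 1.84 to 6.13 CPM. The log2 fold change in Tim4- KCs was 2.53 ± 0.85 (edgeR adjusted p = 0.0338), and the call was lost without replicate 1, without replicate 2, without replicate 3 or without replicate 6, with adjusted p from 0.0594 to 0.102, and both with replicates 1 to 4 alone and with replicates 5 and 6 alone. Over the alternatives the log2 fold change ranged from 1.87 to 4.70. In AMs it ranged from 0.417 to 3.01 CPM over all 15 libraries, and the 3 groups overlapped. Of its 35-base windows, 6.16% also occur in transcripts of other genes.

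Siglec-H is a marker of plasmacytoid dendritic cells. Siglech (ENSMUSG00000051504, chr7:55768178-55778925, plus strand) had no count in 20 of 33 libraries. Its counts over a group summed to 26 in CRE- KCs, 40 in Tim4+ KCs, 22 in Tim4- KCs, 17 in CRE- AMs, 0 in CD11b- AMs and 1 in CD11b+ AMs. The highest level was 1.22 CPM, in a Tim4+ KC library, and all 17 counts of CRE- AMs came from 1 library. Siglec15 had 1 count, in 1 CRE- AM library. Siglech and Siglec15 did not pass the filter on low counts, so differences between groups were not tested for them. At this depth 3 counts correspond to between 0.123 and 0.306 CPM.

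To compare members with each other, CPM was divided by the length of all exons of the gene in GENCODE M21. In CRE- KCs Siglece made up 64.0% to 72.3% of the summed CPM per kb of the 9 family symbols, Siglec1 21.5% to 30.6% and Siglecf 0.149% to 0.545%. In Tim4- KCs Siglecf made up 19.0% to 32.5% and passed Siglec1, which made up 10.1% to 19.0%, in median. CRE- AMs had Siglecf at 55.1% to 61.5%, Siglec1 at a median of 14.6%, Siglece at 9.96% to 13.4% and Cd22 at 7.99% to 9.90%. In CD11b+ AMs Siglecf made up 45.1% to 49.0% and Cd33 18.9% to 22.9%, against 2.64% to 3.20% for Cd33 in CRE- AMs. The summed level had a median of 389, 361 and 453 CPM per kb in CRE-, Tim4+ and Tim4- KCs. In CRE-, CD11b- and CD11b+ AMs it was 326, 248 and 175 CPM per kb.

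The order of the members in CD11b+ AMs depends on the length taken for Cd33, whose exons cover 7771 bases while its shortest principal transcript has 1791. With the shortest principal transcript of each gene, Cd33 led in CD11b+ AMs, with 47.0% to 53.2% of the sum, ahead of Siglecf with 27.4% to 31.2%. The size of the fall of the summed level in AMs depends on this length too. The median of Cd33 was 9.20 CPM per kb in CRE- AMs and 36.3 in CD11b+ AMs with all exons. With the shorter length it was 39.9 and 158 CPM per kb. The leading member in the other groups was the same with both lengths, Siglece in the 3 KC groups and Siglecf in the other 2 AM groups.

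**Figure D2:**
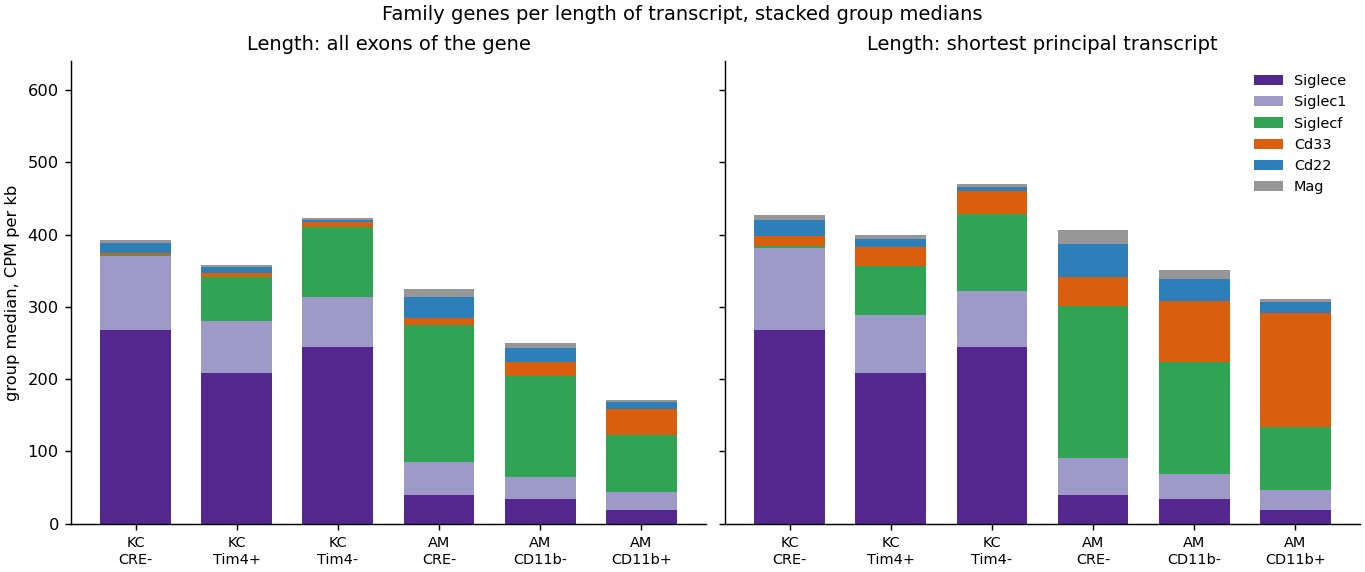
Group medians of 6 family genes in CPM per kb, stacked by group, with the length of all exons (left) and of the shortest principal transcript (right). Siglece is the largest block in the KC groups and Siglecf in CRE- and CD11b- AMs, and the Cd33 block in CD11b+ AMs grows from 36.3 to 158 CPM per kb with the shorter length.

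The response of the 2 tissues was compared in 1 fit, as the mean change of both CRE+ KC groups less that of both CRE+ AM groups. Siglecf differed by 6.51 ± 0.26 on the log2 scale, upwards in all KC libraries and downwards in all AM libraries. Nothing is read from its call, which the selection used. None of the other 5 members tested was called, where 3.5% of all 13294 genes were called higher and 4.65% lower. For Cd33 the change in KCs less that in AMs was -0.63 ± 0.16 (edgeR adjusted p = 0.00364), and for Siglece it was 0.59 ± 0.18 (edgeR adjusted p = 0.0183), both within the fold-change threshold. The difference for Cd22 was -0.10 ± 0.24, with a 95% interval from -0.56 to 0.36 (edgeR adjusted p = 0.851), and that for Siglec1 was 0.24 ± 0.13, with an interval from -0.02 to 0.50 (edgeR adjusted p = 0.222). For Siglecg it was 2.48 ± 0.94 (edgeR adjusted p = 0.0603).

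**Figure D3:**
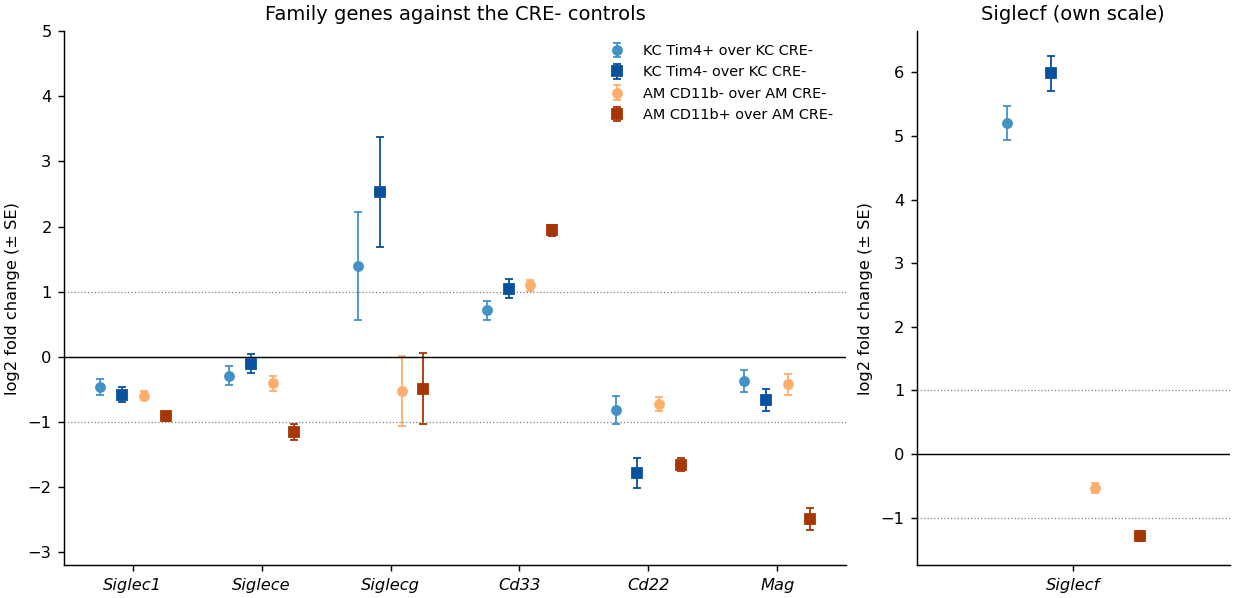
Log2 fold change with its SE for 5 selected genes and Mag (left) and for Siglecf on its own scale (right) in each CRE+ group over the CRE- group of its tissue, with dotted lines at the fold-change threshold of 1. Cd33 lies above 0 and Cd22 below 0 in all 4 comparisons, and Siglecf is at 5.20 and 5.99 in KCs and at -0.53 and -1.28 in AMs.

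The CRE+ subsets were also compared with each other. Between Tim4- and Tim4+ KCs, Cd22 differed by a log2 fold change of -0.96 ± 0.22 (edgeR adjusted p = 0.00653), just within the fold-change threshold. Cd33 differed by 0.33 ± 0.15 (edgeR adjusted p = 0.165), Siglec1 by -0.11 ± 0.12 (edgeR adjusted p = 0.595) and Siglece by 0.18 ± 0.15 (edgeR adjusted p = 0.477). Without the Tim4- KC library of lowest depth, Cd22 was called, at -1.04 (edgeR adjusted p = 0.00526). Liver endothelial markers moved in the same comparison, with a summed level over 10 genes of 1259 to 3456 CPM in Tim4+ KCs, 490 to 641 CPM in Tim4- KCs and 791 to 2168 CPM in CRE- KCs, and their part in it was not tested.

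Between CD11b+ and CD11b- AMs, the members Cd22, Siglece and Siglec1 were lower and Cd33 was higher, each within the fold-change threshold. Cd22 differed by -0.93 ± 0.11 (edgeR adjusted p = 1.14e-06), and it was called at -1.08 without replicate 3. Siglece differed by -0.74 ± 0.12 (edgeR adjusted p = 8.82e-05) and Siglec1 by -0.31 ± 0.07 (edgeR adjusted p = 0.00185). In these 3 genes and in Cd33 the ranges of the AM subsets did not overlap. How many of all genes had ranges apart was not counted, so nothing is read from this. With no fold-change threshold, 4215 of 11573 genes were called between these subsets.

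Across the 15 AM libraries, which share the order of the 3 groups, log2 CPM of Cd33 had Pearson's r of -0.95 with Siglecf, -0.95 with Siglec1, -0.92 with Siglece and -0.96 with Cd22. Over the 18 KC libraries Cd33 went with Siglecf at r = 0.88 and against Cd22 at r = -0.75. Cd33 and Cd22 were thus opposed in both tissues, while Siglecf went with Cd22 in AMs (r = 0.97) and against it in KCs (r = -0.78). These values are a description, and the libraries of a tissue share its 3 groups and the controls.

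**Figure D4:**
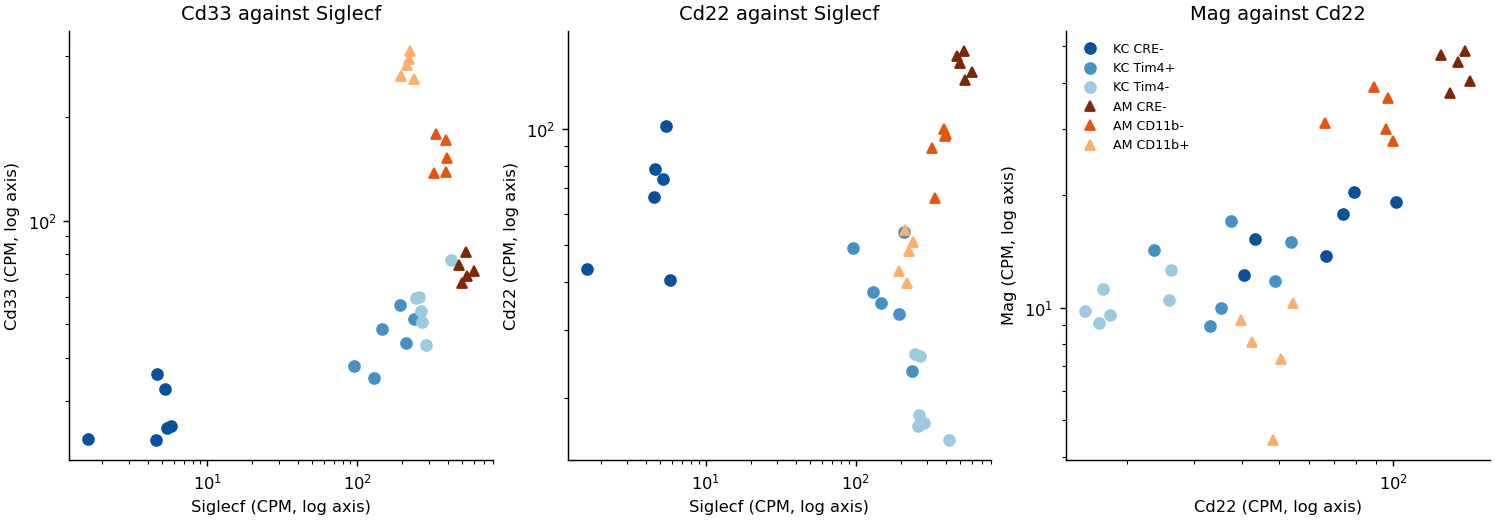
CPM of Cd33 against Siglecf (left), Cd22 against Siglecf (middle) and Mag against Cd22 (right), 1 point per library on log axes, circles for KCs and triangles for AMs. In KCs Cd33 is higher and Cd22 lower where Siglecf is higher, in AMs the reverse, and Mag is between 4.42 and 10.3 CPM in CD11b+ AMs although Cd22 there is within the KC range.

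The genes whose log2 CPM was most like that of each called member were listed over the libraries of 1 tissue. For Siglecf in KCs they were Ms4a1 (r = 0.985), which encodes CD20, Rnase4 (r = 0.983) and Ddit4 (r = 0.98), and in AMs Acvrl1 (r = 0.982), H2-DMa (r = 0.981) and Igflr1 (r = 0.981). For Cd33 they were Slc37a2 (r = 0.961), Dpep2 (r = 0.955) and Fcrl1 (r = 0.949) in KCs and Dgat2 (r = 0.997), Stfa1 (r = 0.994) and Klra17 (r = 0.991) in AMs. For Cd22 they were C4b (r = 0.941), Cmtm3 (r = 0.92) and Tcf3 (r = 0.919) in KCs and Sema6d (r = 0.99), Emilin1 (r = 0.983) and Tns1 (r = 0.98) in AMs. No gene was on the list of the same member in both tissues. Siglecg in KCs was most like St14 (r = 0.954), Pacsin1 (r = 0.928) and Mbp (r = 0.909), and Siglece in AMs was most like Slc39a14 (r = 0.982), Syn1 (r = 0.973) and Gdf15 (r = 0.969). The link of Siglecf with Ms4a1 in KCs was known from the study, which marks Zeb2-/- KCs by Siglec-F and CD20 protein. It reports KCs of CRE+ mice without Siglec-F as Zeb2+/-. How far Siglecf follows the share of fully deleted cells in these libraries was not tested.

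The enzymes that make and attach sialic acids, and so the ligands of the family, were compared in the same fits. Of 20 sialyltransferases, 12 were tested between CRE- KCs and CRE- AMs, and 7 were called higher and none lower in KCs, against 20.9% and 12.4% of all genes, with a median log2 fold change of 1.83 against 0.03 over all genes. Their summed level was 1446 to 1593 CPM in CRE- KCs and 211 to 225 CPM in CRE- AMs. St3gal5, the GM3 ganglioside synthase, was at 786 to 886 CPM in CRE- KCs and at 0 to 0.682 CPM in CRE- AMs. St6gal1, which makes the alpha2,6-linked ligand of CD22, was at 65.0 to 95.6 CPM and 15.8 to 26.3 CPM, a log2 fold change of 2.13 ± 0.15 (edgeR adjusted p = 1.19e-08). In the same comparison 10 of 10 liver endothelial markers, with a median log2 fold change of 8.19, and 9 of 10 hepatocyte markers, with a median of 10.7, were called higher in CRE- KCs. The endothelial markers summed to 791 to 2168 CPM in CRE- KCs and 3.71 to 5.80 CPM in CRE- AMs. The hepatocyte markers summed to 2175 to 3163 CPM and 2956 to 3551 CPM, although 6 of the 10, among them Apoa1 and Ttr, had no count in CRE- AMs. The part of these cells' RNA in the sialyltransferase levels was not tested.

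After deletion, no sialyltransferase was called in Tim4+ KCs and 1 of 12 in each direction in Tim4- KCs, where St6galnac2 had a log2 fold change of -2.01 ± 0.35 (edgeR adjusted p = 0.000265), against 3.43% of all genes called higher and 5.39% lower. In CD11b- AMs 1 of 10 was called higher and 2 lower, against 3.98% and 2.51%, and in CD11b+ AMs 3 higher and 2 lower, against 9.57% and 5.68%. St6gal1 was not called in any CRE+ group, with a log2 fold change of 0.13 ± 0.17 for Tim4+ and 0.07 ± 0.17 for Tim4- KCs, 0.91 ± 0.20 in CD11b- AMs and 0.36 ± 0.20 in CD11b+ AMs.

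Of 10 genes of sialic acid synthesis and turnover, 3 were called higher and 1, Gne, lower in the KC controls relative to the AM controls, against 20.9% and 12.4% of all genes, so nothing is read about the list as a whole. Cmah, which converts Neu5Ac to Neu5Gc, the form preferred by mouse CD22, was at 10.4 to 16.5 CPM in CRE- KCs and at 0.847 to 3.19 CPM in CRE- AMs. Npl, the sialic acid lyase, differed by a log2 fold change of 2.88 ± 0.42 (edgeR adjusted p = 3.15e-05) and Nanp by 1.48 ± 0.22 (edgeR adjusted p = 3.85e-05). With Zeb2 deletion none of the 10 was called in either KC group or in CD11b- AMs, and only Npl in CD11b+ AMs, at 1.15 ± 0.14 (edgeR adjusted p = 8.67e-07). Of the sialidases, Neu1 and Neu3 were tested and neither was called in any CRE+ group.

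Among 7 glycoproteins known to carry Siglec ligands, Cd24a, a ligand of Siglec-G, and Spn (CD43) were low in CRE- KCs. Cd24a was at 55.0 to 99.0 CPM in CRE- AMs, 165 to 210 CPM in CD11b- AMs and 400.2 to 642 CPM in CD11b+ AMs, with log2 fold changes of 1.30 ± 0.15 and 2.74 ± 0.15 over CRE- AMs (edgeR adjusted p = 2.15e-06 and 1.93e-11). In KCs it ranged from 0.369 to 3.46 CPM in the controls and from 2.35 to 7.97 CPM in Tim4- KCs, a log2 fold change of 1.58 ± 0.45 (edgeR adjusted p = 0.0131). Spn went up in Tim4- KCs, by 3.46 ± 0.87 (edgeR adjusted p = 0.00603), and down in CD11b+ AMs, by -1.25 ± 0.18 (edgeR adjusted p = 7.63e-06). The difference between the tissues was 3.42 ± 0.73 for Spn (edgeR adjusted p = 0.000628). Muc1, a mucin, was higher in CD11b- and CD11b+ AMs. It was at 3.53 to 6.43 CPM in CD11b+ AMs against at most 1.01 CPM in CRE- AMs. In CD11b+ AMs 4 of 10 lung epithelial markers (Krt8, Krt18, Cdh1 and Sftpa1) were called higher, against 9.57% of all genes. The other 6 were not called, among them Sftpc at a log2 fold change of 0.78, Scgb1a1 at 0.29 and Cldn18 at -0.90. The 10 markers summed to 97.2 to 143 CPM in CRE- AMs and 828 to 1203 CPM in CD11b+ AMs. The part of epithelial RNA in the Muc1 level was not tested.

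**Figure D5:**
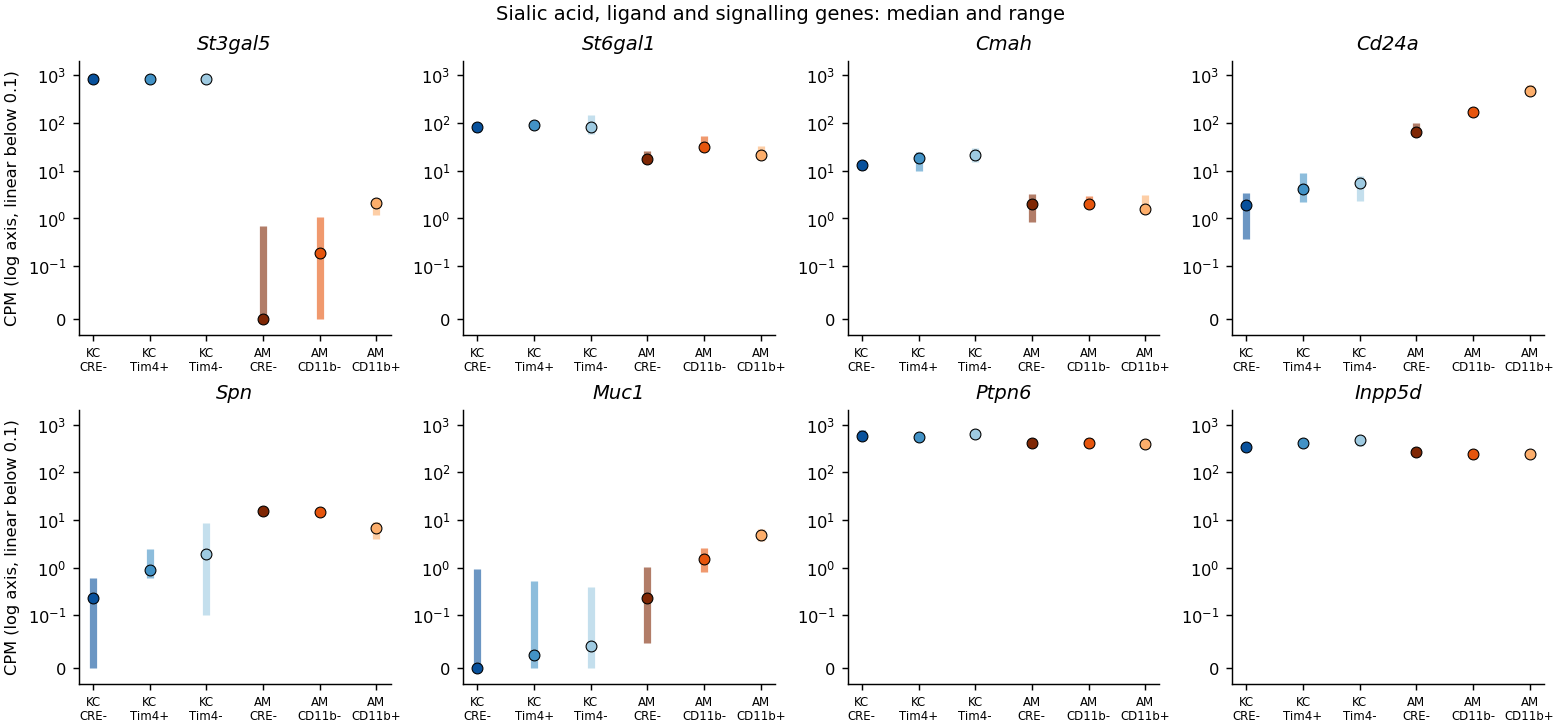
Median (points) and range (bars) of CPM by group for 2 sialyltransferases, Cmah, 3 ligand glycoproteins and 2 phosphatase genes, on a log axis that is linear below 0.1. St3gal5 is at 786 CPM or more in the 18 KC libraries and at 2.26 CPM or less in the 15 AM libraries, Cd24a steps upwards in AMs, and Ptpn6 and Inpp5d stay within 190 to 762 CPM in all groups.

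The intracellular partners of the family were read next. Of 13 signalling genes tested, none was called in Tim4+ KCs or CD11b- AMs. Only Src, a kinase, was called in Tim4- KCs, at -1.94 ± 0.32 (edgeR adjusted p = 0.000124), and in CD11b+ AMs, at 3.96 ± 0.44 (edgeR adjusted p = 3.23e-07). Of all genes, 5.39% were called lower in Tim4- KCs and 9.57% higher in CD11b+ AMs. In Tim4+ KCs 1.94% were called higher and 0.376% lower, and in CD11b- AMs 3.98% and 2.51%. Ptpn6, which encodes SHP-1, had log2 fold changes between -0.08 and 0.12 in the 4 CRE+ groups and Tyrobp, which encodes DAP12, between -0.08 and 0.12. Ptpn11 (SHP-2) was at -0.48 ± 0.15 and Inpp5d (SHIP-1) at 0.40 ± 0.09 in Tim4- KCs (edgeR adjusted p = 0.0255 and 0.00339), both within the fold-change threshold.

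Other inhibitory receptors with ITIM motifs were read in the same way. Of 13 tested, 1 was called higher and none lower in Tim4+ KCs, 1 higher and 1 lower in Tim4- KCs, none in CD11b- AMs, and 6 higher and 2 lower in CD11b+ AMs, with medians of 0.00, 0.11, 0.16 and 0.78 on the log2 scale. Of all genes, Tim4+ KCs had 1.94% called higher and 0.376% lower, Tim4- KCs 3.43% and 5.39%, CD11b- AMs 3.98% and 2.51%, and CD11b+ AMs 9.57% and 5.68%. Clec4a2, a C-type lectin receptor, fell from 94.98 to 112 CPM in CRE- AMs to 4.27 to 8.52 CPM in CD11b+ AMs, a log2 fold change of -4.08 ± 0.15 (edgeR adjusted p = 4.27e-14). In Tim4- KCs it was higher than in the controls by 0.93 ± 0.11 (edgeR adjusted p = 2.15e-06), and the mean change in KCs less that in AMs was 3.03 ± 0.16 (edgeR adjusted p = 7.15e-16). Fcgr2b, the inhibitory IgG receptor, went the other way, lower in Tim4- KCs by -1.40 ± 0.29 (edgeR adjusted p = 0.00118) and higher in CD11b+ AMs by 1.964 ± 0.07 (edgeR adjusted p = 4.77e-14). Beside the lower values of Fcgr2b, Src and St6galnac2 in Tim4- KCs, 8 of 10 liver endothelial markers were called lower there over CRE- KCs, with a median log2 fold change of -1.44. Between Tim4- and Tim4+ KCs Fcgr2b differed by -2.06 ± 0.29 (edgeR adjusted p = 8.71e-05). The endothelial markers had a median of -2.03 there, with 8 of 10 called lower against 5.01% of all genes. The part of endothelial RNA in these 3 genes was not tested.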

How the data were processed

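RNA-seq count tables of 33 libraries, 1 per sample, were used as deposited. The counts per gene are the authors' own: per the labels and the study's methods, reads were trimmed with Trimmomatic 0.35, checked with FastQC 0.11.4 and aligned to mm10 with TopHat2 2.1.0, SAMtools 0.1.18 was named as well, and HTSeq-count counted reads on genes. The strand setting and annotation of the counting are not given in the sources used here. The 5 tally rows were left out, of which reads on no feature came to 4.52% to 8.90%.

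Levels are CPM on TMM library sizes over all libraries. Differences were tested with edgeR 4.0.16 (quasi-likelihood test, TMM, filterByExpr, Benjamini-Hochberg adjustment over all genes tested) in R 4.3.3, with 1 fit for the KCs, 1 for the AMs, 1 for both control groups and 1 for all samples. A call needed an adjusted p under 0.05 and an absolute log2 fold change over 1, and the script was tested on simulated data. The alternatives used limma 3.58.1 (voom), DESeq2 1.42.0, other filters and size factors, a replicate block and left-out libraries. The members and lists were chosen with earlier results of these data known, and the text names the members, Mag and the listed genes that were called or define a list. Same-numbered libraries were most alike in Tim4- over Tim4+ KCs, where each of 6 pairs had a correlation of deviations between 0.112 and 0.250. Each of 5 AM libraries also went best with its own number, but weakly. The correlations were 0.052 to 0.099 in CD11b+ over CD11b- AMs and 0.038 to 0.088 in CD11b+ over CRE- AMs. The main fits had no replicate block, and the blocked fit changed no call of a member in these comparisons. Promoters are RefSeq's (GRCm38.p6) and exon lengths GENCODE M21's. CPM precision is set by depth, at which 3 counts are 0.123 to 0.306 CPM, for counting error only.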

Additional observations from a re-analysis of the deposited data

Results flagged for a closer look

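Of 47 sets of 5 or 6 libraries, 7 had an end library whose gap to its nearest neighbour was large against the range of the group. The cut-offs give about 1 in 20 only for normally distributed values, so the 7 are not set against that rate. Where only 1 library of a group had a count, as for Siglech in CRE- AMs and CD11b+ AMs, the gap is the whole range by construction. Siglecf in CRE- KCs was at 1.62 CPM in replicate 1, with the next library at 4.53 CPM, and in Tim4- KCs at 421 CPM in replicate 5, with the next at 288 CPM. Siglece in CRE- KCs was at 651 CPM in replicate 4, with the next at 500.3 CPM. The other 4 were Siglech, which has few counts: 0.0610 CPM in CD11b+ AM replicate 1, 0.758 CPM in CRE- AM replicate 1, 1.22 CPM in Tim4+ KC replicate 5 and 1.02 CPM in Tim4- KC replicate 1.

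The change in KCs less that in AMs, tested in the edgeR fit of all libraries, was 6.51 on the log2 scale for Siglecf, 0.59 for Siglece, -0.63 for Cd33 and 0.95 for Mag. The value of Siglecf is a description, since its opposite course was known when the genes were chosen.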

How the results depend on the processing

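No called result changed direction. Of the members' log2 fold changes that were not called, 3 took either sign over the alternatives: Siglece in Tim4- over CRE- KCs (-0.24 to 0.03), Siglecg in CD11b+ over CD11b- AMs (-0.34 to 0.15) and Cd22 in the tissues' changes (-0.29 to 0.06). Of 700 log2 fold changes under the alternatives, 664 kept their side of the threshold, 27 became called and 9 were lost. With no fold-change threshold, 4 members in place of 1 were called in Tim4+ KCs, 2 in place of 0 between the KC subsets, 5 in place of 1 in CD11b- AMs, 5 in place of 0 between the AM subsets and 3 in place of 1 between the tissues' changes. In that last comparison limma-voom, DESeq2 and the replicate block each called 2, adding Siglecg. The replicate block changed no other count of members by over 1.5 times. With KC replicates 5 and 6 alone, 2 members were called in Tim4+ KCs (1 with all) and 2 in Tim4- KCs (4 with all). Without the Tim4- KC library of lowest depth, a choice made after seeing the data, 1 was called between the KC subsets, Cd22. Leaving out 1 replicate at a time gave 4 to 5 calls between the control tissues (Cd22 at -0.99 without replicate 3), 1 to 2 in Tim4+ KCs, 2 to 4 in Tim4- KCs, 0 to 0 between the KC subsets, 1 to 1 in CD11b- AMs, 4 to 4 in CD11b+ AMs, 0 to 1 between the AM subsets and 1 to 2 between the tissues' changes. The cause of these moves was not tested, apart from the removed threshold.

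Counts over all genes were between 289 and 4045 in the 8 comparisons, between 187 and 2228 with at least 10 counts in every sample, which tests fewer genes, and between 761 and 7680 with no fold-change threshold. With replicates 5 and 6 alone 636 genes were called in Tim4- KCs (1103 with all) and 178 between the KC subsets (681), with fewer samples, and with replicates 1 to 4 alone 190 in Tim4+ KCs (289). Depth limits Siglecg and Siglech, with 0 counts in some libraries.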
